A study of Mus musculus with 18 samples.

Results

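NF-kB subunits and their feedback targets were followed across 18 end-stage splenic tumours of Eμ-Myc mice, whose Myc transgene is driven in B lineage cells by an enhancer of the immunoglobulin heavy chain locus. The set was chosen by name as 10 genes: the subunit genes Nfkb1, Nfkb2, Rel and Relb, the inhibitor and feedback genes Nfkbia, Tnfaip3 and Bcl3, and the target genes Icam1, Ccl3 and Ccl4. Of these, 9 had a probe set carrying 1 gene symbol, out of 19938 genes named that way, and each of the 9 had 1 such probe set. Nfkb1 is not analysed here. The 9 knockout (KO) tumours came from Eμ-Myc mice lacking Prdm11 and the 9 wild-type (WT) tumours from Eμ-Myc mice with intact Prdm11, so that the transgene and the C57BL/6 background given in the labels were shared by both groups. Each tumour came from its own mouse and was taken at end stage and processed whole after freezing, and no sorting is given. Ages and the design of the deletion are not given in the sources used here. Levels are log2 values of the deposited RMA intensities, and differences are KO minus WT.

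NF-kB proteins are dimers of Rel family subunits that bind κB sites in promoters and enhancers. In resting cells they are held in the cytoplasm by inhibitors such as IκBα, the product of Nfkbia, and signals from antigen receptors, Toll-like receptors and TNF receptors lead to the loss of these inhibitors. In a separate route, receptors such as CD40 and the BAFF receptor cause the Nfkb2 precursor p100 to be processed to p52, which pairs with RelB. Several genes that NF-kB induces encode its own inhibitors, and the pathway is known for its roles in B cell survival, activation and lymphoid organ structure.

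Promoter sequences are shown because feedback in this pathway runs through κB sites in the genes of its own members, and because several members varied together between tumours. Of the 9 measured members, 7 had an entry in the RefSeq promoter table of build GRCm38.p6. Relb and Ccl4 are named only. The 250 bases before each listed start were searched on both strands for the degenerate κB consensus of 10 bases and for the inverted repeat GGAANTTCC, which can overlap it. The κB consensus was found in 3.90% and the inverted repeat in 0.813% of all 32851 promoters of that length. Capitals below mark the matches, joined where they overlap.
Rel, chr11:23770970-23771219, minus strand: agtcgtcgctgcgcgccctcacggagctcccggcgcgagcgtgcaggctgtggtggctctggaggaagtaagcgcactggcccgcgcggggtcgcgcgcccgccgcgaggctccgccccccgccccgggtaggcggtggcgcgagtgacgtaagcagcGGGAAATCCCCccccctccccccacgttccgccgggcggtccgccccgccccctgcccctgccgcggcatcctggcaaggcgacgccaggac
Nfkbia, chr12:55492648-55492897, minus strand: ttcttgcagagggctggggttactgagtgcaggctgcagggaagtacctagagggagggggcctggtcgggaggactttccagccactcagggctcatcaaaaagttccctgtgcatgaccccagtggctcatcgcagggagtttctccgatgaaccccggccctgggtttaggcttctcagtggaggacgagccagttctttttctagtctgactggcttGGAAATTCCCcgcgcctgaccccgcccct
Tnfaip3, chr10:19015411-19015660, minus strand: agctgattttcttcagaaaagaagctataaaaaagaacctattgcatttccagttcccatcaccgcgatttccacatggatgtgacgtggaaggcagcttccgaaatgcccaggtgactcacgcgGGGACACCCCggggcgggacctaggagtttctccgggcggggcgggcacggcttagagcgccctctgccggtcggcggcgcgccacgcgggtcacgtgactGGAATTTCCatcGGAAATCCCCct
Nfkb2, chr19:46304487-46304736, plus strand: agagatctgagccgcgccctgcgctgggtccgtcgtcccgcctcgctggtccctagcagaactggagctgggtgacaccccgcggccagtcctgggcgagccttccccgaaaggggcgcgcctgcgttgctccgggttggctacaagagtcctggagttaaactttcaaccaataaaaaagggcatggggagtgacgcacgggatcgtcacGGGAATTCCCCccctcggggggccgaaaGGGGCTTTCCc
Icam1, chr9:21015690-21015939, plus strand: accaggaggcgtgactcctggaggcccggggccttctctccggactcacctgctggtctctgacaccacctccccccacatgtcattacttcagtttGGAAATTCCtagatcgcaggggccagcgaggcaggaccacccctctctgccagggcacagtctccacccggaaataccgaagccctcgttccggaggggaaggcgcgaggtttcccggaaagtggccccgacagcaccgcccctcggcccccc
Ccl3, chr11:83649379-83649628, minus strand: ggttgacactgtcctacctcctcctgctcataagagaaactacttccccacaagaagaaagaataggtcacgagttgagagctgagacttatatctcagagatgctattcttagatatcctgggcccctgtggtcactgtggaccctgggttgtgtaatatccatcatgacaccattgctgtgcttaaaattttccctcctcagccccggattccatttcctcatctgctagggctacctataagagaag

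The κB consensus matched in 4 of the 7 members, Nfkb2, Rel, Nfkbia and Tnfaip3, and the inverted repeat matched in 3, Nfkbia, Tnfaip3 and Icam1. In Nfkbia both motifs met in 1 stretch that began 29 bases before the start. In Icam1 the stretch began 153 bases before the start. In Tnfaip3 the stretches began 125, 24 and 12 bases before the start, and in Rel 92 bases before it. Nfkb2 has 3 starts in the table, of which the one listed first is shown, with stretches 39 and 11 bases before it, and its other starts also had matches. Tnfaip3 has 2 starts, and only the one shown had matches. The windows of Bcl3 and Ccl3 held neither motif, which says only that these letters were not in them. A match is a description of the letters and not a measurement of binding.

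The array of WT tumour 3 and the cell markers of KO tumour 6 and WT tumour 8 stood apart. For WT tumour 3 the correlations with the other arrays had a median of 0.924, while this median lay between 0.957 and 0.975 for each of 17 arrays. The B lineage list, of which 8 of 9 genes were measured, averaged 7.03 to 8.23 in KO and 6.38 to 8.15 in WT tumours, and the lowest mean was that of WT tumour 8. In that tumour the B cell receptor component Cd79a was at 3.69, against 5.67 to 6.88 in the 16 tumours other than it and KO tumour 6, and the B lineage factor Ebf1 was at 4.25, against 5.93 to 8.45. Cd8b1, a T cell coreceptor chain, was at 7.86 in KO tumour 6 and 9.50 in WT tumour 8, above the 4.83 to 7.09 of those 16 tumours. KO tumour 6 and WT tumour 8 had the highest means of the T cell list, of which 8 of 9 genes were measured, at 7.25 and 7.20. Whether WT tumour 8 is a B cell tumour was not tested. Several results are also given without it, and the rest include it in the WT group. The 2 tumours differed in mature B cell markers. The complement receptor gene Cr2 was at 9.64 in KO tumour 6, the highest of all 18, and at 4.35 in WT tumour 8, the lowest. The probe set of Prdm11 gave 4.87 to 5.49 in KO and 4.84 to 5.66 in WT tumours (difference -0.12, two-sided exact permutation p = 0.311), and since its place relative to the deleted part is unknown here, these levels are no check of genotype.

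None of the 9 members differed between genotypes past the threshold. Their adjusted p-values in limma ran from 0.781 to 0.971 over all 19938 genes, with 0 members called, where 0.00502% of all genes were called (1 gene). An unadjusted p below 0.05 was also reached by 0 members, where 6.70% of all genes had one. The differences were negative for 6 members and positive for 3, with a median of -0.09 beside -0.03 for all genes, of which 59.2% were negative. Each member's levels in KO and WT tumours overlapped. In these whole tumours, fewer cells of a type and less RNA per cell cannot be told apart.

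**Figure D1:**
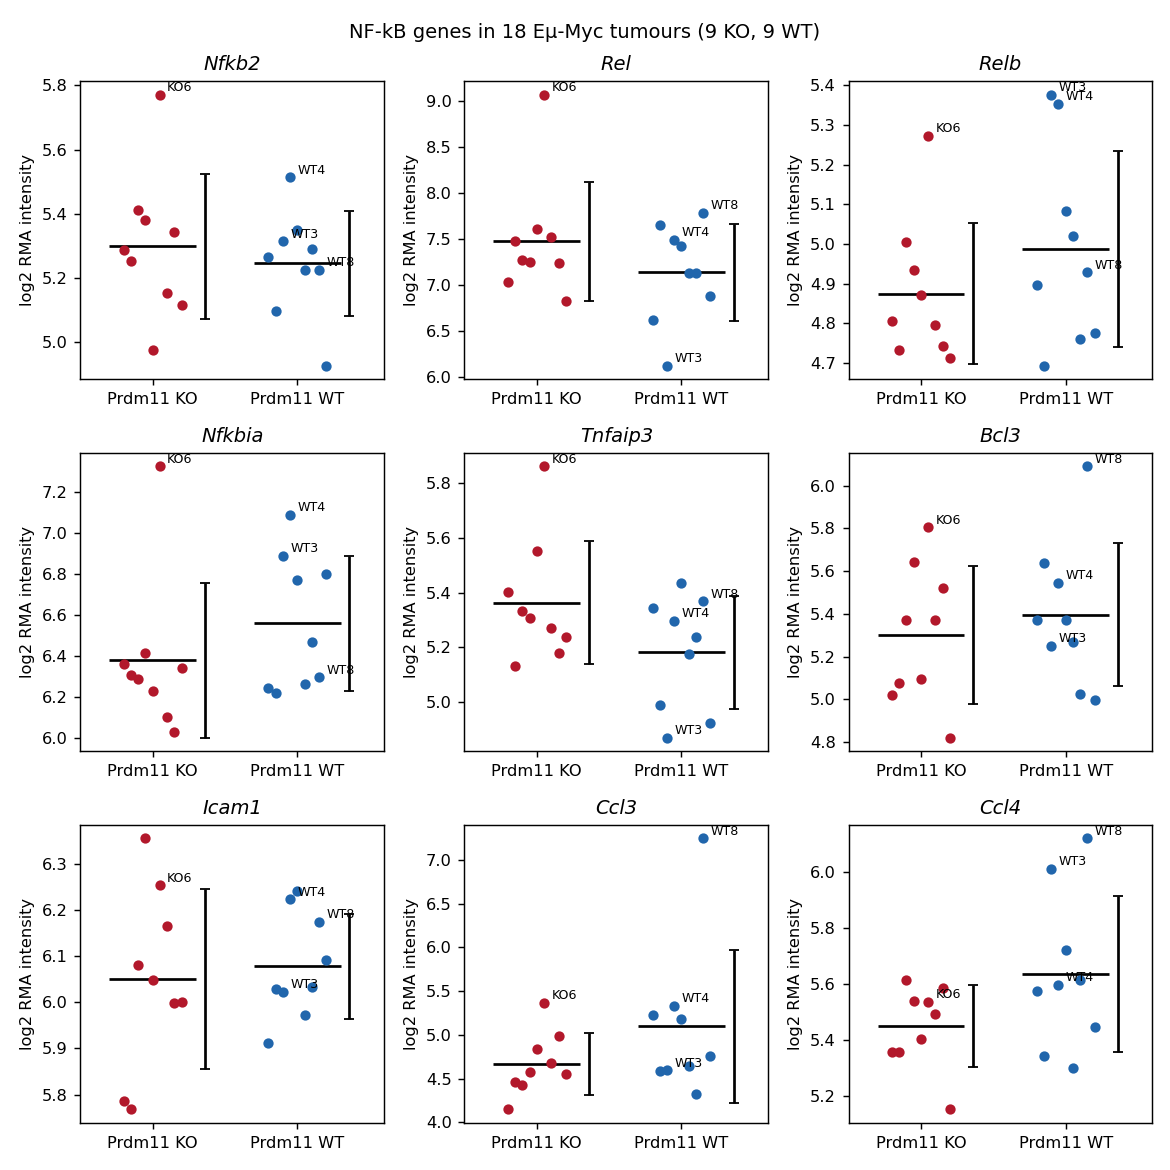
Log2 RMA intensity of the 9 measured members in 9 Prdm11 KO tumours (red, left) and 9 Prdm11 WT tumours (blue, right). Points are tumours, horizontal lines are group means and bars beside them are ± 1 SD, each panel has its own axis, and tumours KO6, WT3, WT4 and WT8 are labelled. The groups overlap in every panel, and KO6 is the highest KO point for all members but Icam1 and Ccl4.

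Rel encodes c-Rel, the subunit most tied to lymphocyte activation and growth. Its lowest, median and highest levels were 6.82, 7.26 and 9.06 in KO tumours, against 6.12, 7.13 and 7.78 in WT tumours. It averaged 7.47 ± 0.65 in KO and 7.13 ± 0.53 in WT tumours (SD, n = 9 each), a difference of 0.34 (SE 0.25, 95% interval -0.19 to 0.87, limma adjusted p = 0.820). KO tumour 6 stood alone at the top, 1 of 9 KO tumours above every WT tumour, and the next KO tumour was at 7.61. WT tumour 3 held the lowest level of all 18. The difference was 0.14 without KO tumour 6 and 0.21 without WT tumour 3. It was 0.60 with the marker means of T cells, macrophages and erythroid cells as covariates (limma adjusted p = 0.203). Those covariates moved many genes. Over all genes 1440 were higher and 1594 lower at an unadjusted limma p below 0.05 with them, against 564 and 772 without them.

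Nfkb2 encodes p100, the precursor of p52, which both restrains and supplies the RelB route. It ran from 4.97 through a median of 5.29 to 5.77 in KO tumours, against 4.93, 5.27 and 5.51 in WT tumours. The mean was 5.30 ± 0.23 in KO and 5.24 ± 0.16 in WT tumours (SD, n = 9 each), a difference of 0.05 (SE 0.10, 95% interval -0.15 to 0.26, limma adjusted p = 0.937). The groups coincided over most of their range, with KO tumour 6 above all others, and without it the difference was -0.006.

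Relb encodes RelB, the partner of p52. In KO tumours its lowest, median and highest levels were 4.71, 4.81 and 5.27, against 4.69, 4.93 and 5.38 in WT tumours. Its means were 4.87 ± 0.18 in KO and 4.99 ± 0.25 in WT tumours (SD, n = 9 each), which differed by -0.11 (SE 0.11, 95% interval -0.33 to 0.11, limma adjusted p = 0.863). The top of the range was held by WT tumours 3 and 4 and KO tumour 6, and every other tumour was at or below the 5.08 of WT tumour 5. No KO tumour was above every WT tumour or below every WT tumour, and without WT tumour 3 the difference was -0.064.

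Nfkbia encodes IκBα, the inhibitor that NF-kB itself induces and that closes the fast feedback loop. It ran from 6.03 through 6.31 to 7.32 in KO tumours, against 6.22, 6.47 and 7.09 in WT tumours. The mean was 6.38 ± 0.38 in KO and 6.56 ± 0.33 in WT tumours (SD, n = 9 each), a difference of -0.18 (SE 0.16, 95% interval -0.51 to 0.15, limma adjusted p = 0.853). Among KO tumours only tumour 6 was above the WT median, and the next highest KO tumour was at 6.42, while KO tumours 7 and 8 were below every WT tumour. WT tumours spread more evenly, with tumours 4, 3, 9 and 5 in the upper part. The difference was -0.30 without KO tumour 6, and over all alternatives the limma adjusted p ran from 0.410 to 0.969.

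Tnfaip3 encodes A20, a ubiquitin-editing enzyme that ends signalling from TNF and Toll-like receptors. Its lowest, median and highest levels were 5.13, 5.31 and 5.86 in KO tumours, against 4.87, 5.24 and 5.43 in WT tumours. It averaged 5.36 ± 0.22 in KO and 5.18 ± 0.21 in WT tumours (SD, n = 9 each), a difference of 0.18 (SE 0.10, 95% interval -0.04 to 0.40, limma adjusted p = 0.781). KO tumours 6 and 5 were above every WT tumour, and WT tumours 3, 9 and 2 were below every KO tumour. The difference was 0.12 without KO tumour 6, and 0.29 with those marker covariates (limma adjusted p = 0.195). The exact permutation p over all 48620 splits of the tumours was 0.0902, the lowest of the 9 members, and the smallest this design can give is 4.11e-05.

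Bcl3 encodes an atypical IκB protein that works in the nucleus with p50 and p52. In KO tumours it ran from 4.82 through 5.37 to 5.81, against 4.999, 5.37 and 6.09 in WT tumours. The means were 5.30 ± 0.32 in KO and 5.40 ± 0.34 in WT tumours (SD, n = 9 each), a difference of -0.09 (SE 0.15, 95% interval -0.40 to 0.22, limma adjusted p = 0.921). The medians were alike, and WT tumour 8 was the highest of all 18, followed by KO tumour 6. Without WT tumour 8 the difference was -0.006.

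Icam1 encodes the adhesion ligand of LFA-1, induced by NF-kB on B cells and endothelium. Its lowest, median and highest levels were 5.77, 6.05 and 6.36 in KO tumours, against 5.91, 6.03 and 6.24 in WT tumours. The difference was -0.03 (SE 0.09, 95% interval -0.21 to 0.15, limma adjusted p = 0.971), from means of 6.05 ± 0.19 in KO and 6.08 ± 0.11 in WT tumours (SD, n = 9 each). KO tumours were spread more widely, with tumours 4 and 6 above every WT tumour and tumours 1 and 2 below every WT tumour. The spread of Icam1 over all 18 tumours was small, with an SD of 0.16, which lay at percentile 5.57 of the SDs of all genes.

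Ccl3 and Ccl4 encode MIP-1α and MIP-1β, chemokines that draw T cells, NK cells and monocytes and that activated B cells, T cells, NK cells and macrophages release. Both lie on chromosome 11, and their annotated spans overlap in the RefSeq table on GRCm38.p6. Ccl3 ran from 4.15 through 4.57 to 5.37 in KO tumours, against 4.32, 4.75 and 7.25 in WT tumours. Its means were 4.67 ± 0.36 in KO and 5.10 ± 0.88 in WT tumours (SD, n = 9 each), a difference of -0.43 (SE 0.29, 95% interval -1.02 to 0.17, limma adjusted p = 0.809). WT tumour 8 held the top by a wide margin, since the next WT tumour was at 5.33, and without it the difference was -0.16. Ccl3 had the largest SD of the 9 members over the 18 tumours, 0.69, at percentile 96.6 of all genes. Without WT tumour 8 its SD was 0.36, at percentile 76.0, and that of Rel was larger at 0.61.

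Ccl4 varied less than Ccl3 on the log2 scale. Its lowest, median and highest levels were 5.15, 5.49 and 5.62 in KO tumours, against 5.30, 5.60 and 6.12 in WT tumours. The mean was 5.45 ± 0.15 in KO and 5.64 ± 0.28 in WT tumours (SD, n = 9 each), a difference of -0.19 (SE 0.11, 95% interval -0.41 to 0.04, limma adjusted p = 0.781, exact permutation p = 0.0957). Only 1 of 9 KO tumours was above the WT median, and WT tumours 8 and 3 were above all others. Without WT tumour 8 the difference of Ccl4 was -0.13. With the marker means of T cells, macrophages and erythroid cells as covariates the difference was -0.18, and that of Ccl3 was -0.11.

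**Figure D2:**
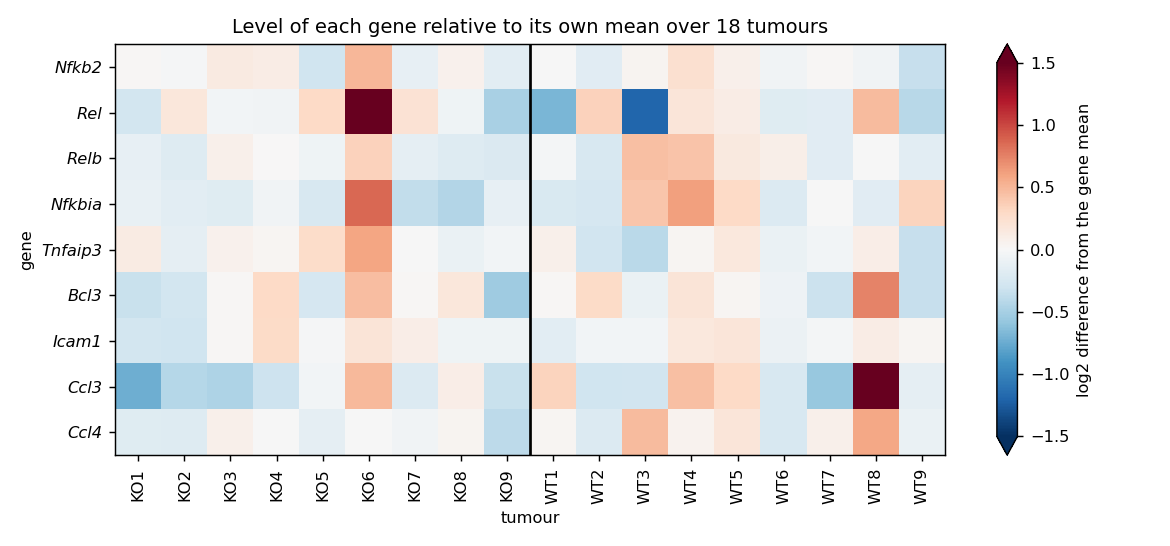
Level of each member (rows) in each tumour (columns, KO left of the black line, WT right of it) as the log2 difference from that gene's mean over 18 tumours; the colour scale stops at 1.5 in either direction, which Rel in KO6 and Ccl3 in WT8 exceed. KO6 is above the mean for all members but Ccl4, while WT8 is high for Bcl3, Ccl3 and Ccl4, and WT3 is high for Relb, Nfkbia and Ccl4 and low for Rel.

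The tumours at the top differed between members. KO tumour 6 had the highest level of Rel, Nfkb2, Nfkbia and Tnfaip3 among all 18 tumours and ranked among the top 3 for 8 of the 9 members, all but Ccl4. WT tumour 8 had the highest level of Bcl3, Ccl3 and Ccl4 and was among the top 3 for Rel as well. WT tumour 4 was among the top 3 for Nfkb2, Relb, Nfkbia and Ccl3. At the other end, WT tumour 2 was among the lowest 3 for 5 members, although its Rel level was the third highest.

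Members varied together between tumours, more often positively than negatively. Of 36 pairs, 34 had a positive Pearson r over the 18 tumours, with a median of 0.367, beside 0.019 over all pairs of the 19938 genes. The pairs share genes and arrays and are not independent. By permutation with 100000 resamples, 12 pairs had an unadjusted p below 0.05. After Benjamini-Hochberg adjustment over the 36 pairs 4 passed, while 0 passed by Spearman's rho. The shares of all gene pairs that were positive or passed were not computed, so these counts have no background beside them. Without KO tumour 6 the 4 became 0, 28 pairs were positive and the median was 0.276. In a setting added once the levels were known, without both KO tumour 6 and WT tumour 8, 0 pairs passed and 27 were positive, with a median of 0.290. The median pair r was 0.574 among the 9 KO tumours and 0.362 among the 9 WT tumours, a difference that was not tested. Leaving out KO tumour 6 gave 0.225 among the other KO tumours.

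**Figure D3:**
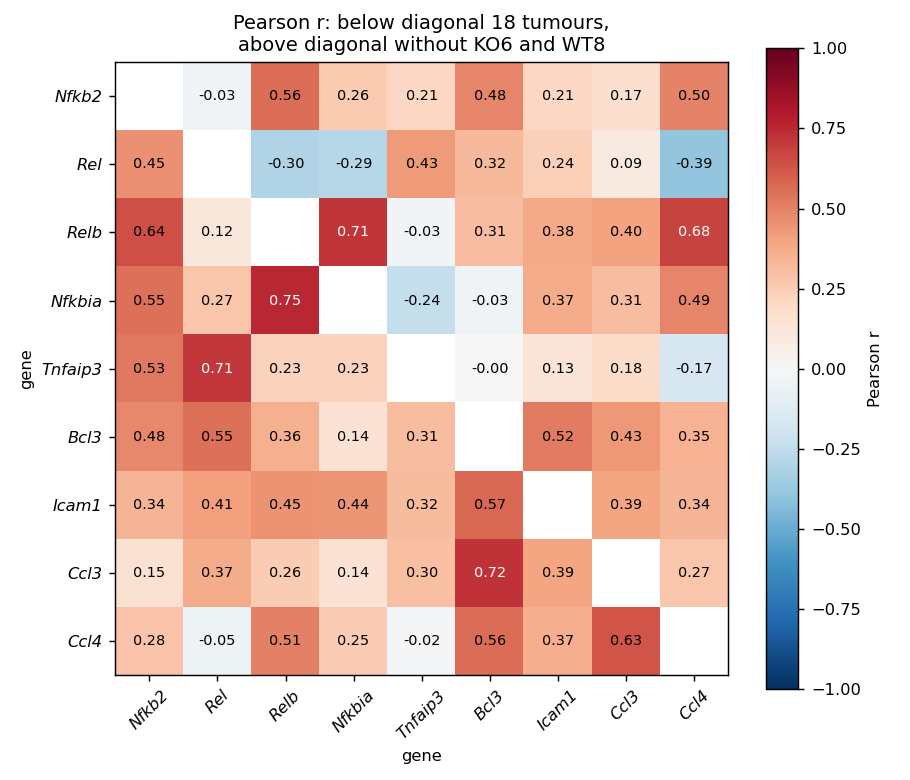
Pearson r for each of the 36 pairs of members, over 18 tumours below the diagonal and over the 16 tumours without KO6 and WT8 above it, on a colour scale from -1 to 1. Relb with Nfkbia is 0.75 below the diagonal and 0.71 above it, where WT3 and WT4, high for both genes, are still included. Rel with Nfkbia is 0.27 below the diagonal and -0.29 above it.

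Relb and Nfkbia had the highest correlation of the 36 pairs. Pearson's r was 0.754 (permutation p = 0.00076, adjusted p = 0.0137) and Spearman's rho was 0.525 (permutation p = 0.0275, adjusted p = 0.129). Its size was 0.843 among KO tumours, or 0.295 without KO tumour 6, and 0.683 among WT tumours, and 0.640 when WT tumours 3 and 4, which lay farthest from the median of Relb, were left out. KO tumour 6 and WT tumours 3 and 4 had the 3 highest levels of both genes, and r without all 3 was not computed. Its r was 0.705 without KO tumour 6 (adjusted permutation p = 0.0526). Relb and Nfkb2, whose products pair as RelB and p52, had an r of 0.644 (permutation p = 0.00354, adjusted p = 0.0319) and a rho of 0.622 (permutation p = 0.00721, adjusted p = 0.0886). That r was 0.784 among KO tumours, or 0.370 without KO tumour 6, and 0.722 among WT tumours, and 0.560 without KO tumour 6 and WT tumour 9. It kept an adjusted p below 0.05 in 15 of the 24 alternatives that could change it. It missed it after quantile normalization (r = 0.489, adjusted permutation p = 0.179), after median centring (r = 0.510, adjusted permutation p = 0.131), with marker residuals (r = 0.574), and when KO tumour 6 (r = 0.556), KO tumour 9 (0.626), WT tumour 2 (0.621), WT tumour 4 (0.593) or WT tumour 5 (0.639) was left out.

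Bcl3 and Ccl3 were next, with an r of 0.725 (permutation p = 0.00076, adjusted p = 0.0137) and a rho of 0.620 (permutation p = 0.00675, adjusted p = 0.0886). Within genotypes r was 0.639 in KO tumours, or 0.378 without KO tumour 6, and 0.834 in WT tumours, or 0.479 without WT tumour 8. Leaving out WT tumour 8 and KO tumour 9 gave 0.557, and leaving out WT tumour 8 alone gave 0.554 (adjusted permutation p = 0.0961), the lowest value when single tumours were left out. Leaving out KO tumour 6 gave an adjusted permutation p of 0.0526 at an r of 0.719. Ccl3 and Ccl4, neighbours on chromosome 11, had an r of 0.630 (permutation p = 0.0111, adjusted p = 0.0767) and a rho of 0.348 (permutation p = 0.156, adjusted p = 0.240). Its r was 0.261 when WT tumour 8 was left out, against 0.789 when WT tumour 3 was.

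Rel and Tnfaip3 had an r of 0.709 (permutation p = 0.00279, adjusted p = 0.0319) and a rho of 0.422 (permutation p = 0.0817, adjusted p = 0.194). The relation rested on the tumours at the ends of the Rel range, since r was 0.171 without KO tumour 6 and WT tumour 3. Among KO tumours it was 0.817, or 0.217 without KO tumour 6, and among WT tumours 0.491, or 0.150 without WT tumour 3. With 1 tumour left out it lost the threshold without KO tumour 6 (r = 0.457) and without WT tumour 3 (r = 0.630). The lowest 3 of the 36 correlations were 0.117 for Rel with Relb (rho = 0.038), -0.018 for Tnfaip3 with Ccl4 (rho = 0.236) and -0.054 for Rel with Ccl4 (rho = 0.057), with permutation p of 0.633, 0.942 and 0.818 for r and 0.883, 0.344 and 0.824 for rho. Rel with Relb was 0.823 among KO tumours, or 0.233 without KO tumour 6, and -0.310 among WT tumours, or 0.200 without WT tumour 3. It turned to -0.273 over all tumours when KO tumour 6 was left out.

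**Figure D4:**
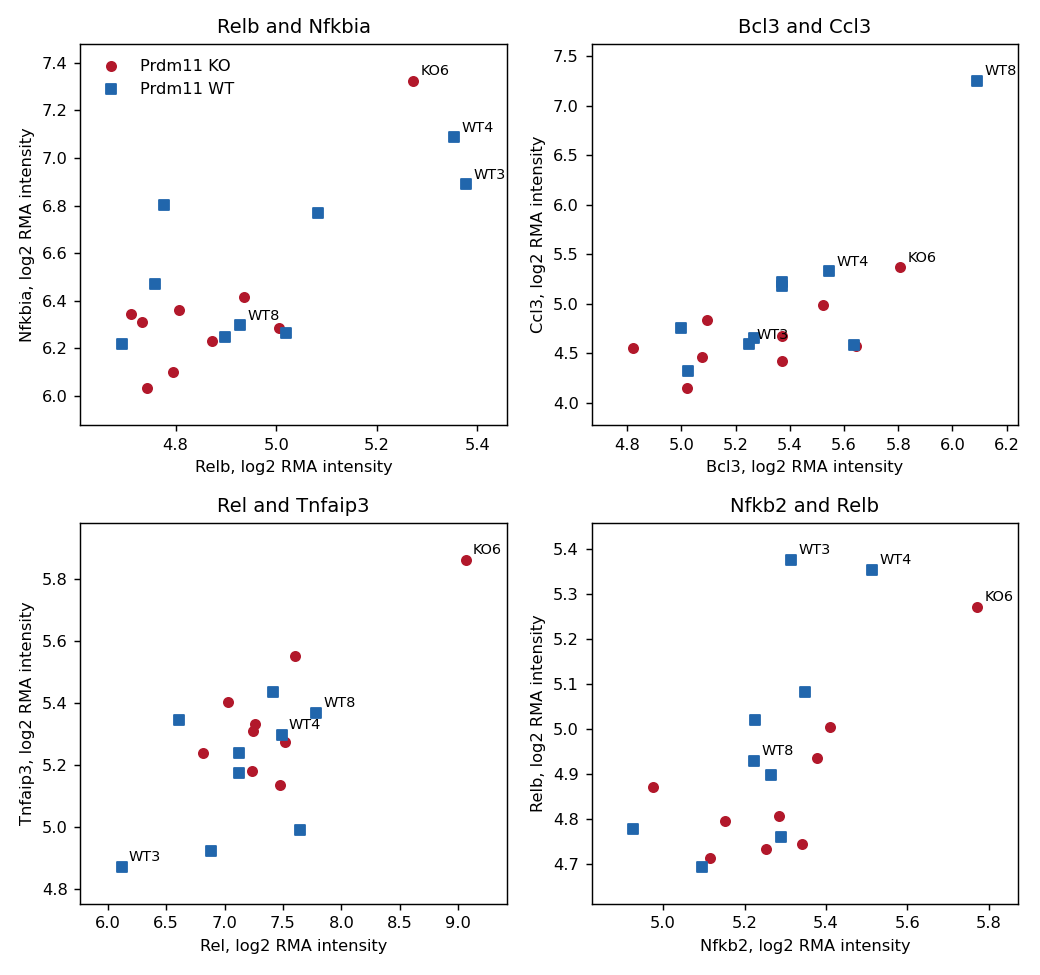
The 4 pairs past the adjusted threshold over 18 tumours, with both axes in log2 RMA intensity, KO tumours as red circles and WT tumours as blue squares, and tumours KO6, WT3, WT4 and WT8 labelled. WT8 lies far out for Bcl3 and Ccl3 (6.09 and 7.25) and KO6 for Rel and Tnfaip3 (9.06 and 5.86), while for Relb and Nfkbia the upper end holds KO6, WT3 and WT4.

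Some members followed the marker lists of some cell types. Each member was set against the mean level of 11 marker lists. Of these 99 relations 11 had an adjusted permutation p below 0.05 by Pearson's r, 0 by Spearman's rho. The B lineage, pro-B and pre-B, macrophage, neutrophil, erythroid and megakaryocyte lists were not among them. Nfkbia, Nfkb2 and Relb followed the mature B cell list, of which 5 of 7 genes were measured, with r of 0.765, 0.671 and 0.665 (adjusted permutation p = 0.0224, 0.0450 and 0.0425). Their rho values were 0.538, 0.424 and 0.585 (permutation p = 0.0227, 0.0808 and 0.0120). Without KO tumour 6 and WT tumour 4 these r were 0.351, 0.0997 and 0.406. Without KO tumour 6 and WT tumour 8 they were 0.622, 0.396 and 0.712, so that the relation of Nfkb2 fell most in both settings and that of Relb fell only in the first. Summed intensities of the mature B cell list ran from 461 to 1499 in KO and from 355 to 768 in WT tumours.

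Ccl3 and Rel followed the T cell list, with r of 0.732 and 0.654 (adjusted permutation p = 0.0224 and 0.0339) and rho of 0.534 and 0.484 (permutation p = 0.0247 and 0.0440). Without KO tumour 6 and WT tumour 8 the r were 0.588 for Ccl3 and 0.346 for Rel. The summed intensity of the T cell list ran from 257 to 2546 in KO and from 274 to 2624 in WT tumours. Ccl3, Bcl3, Relb and Rel followed the dendritic cell list, all 7 genes of which were measured, with r of 0.729, 0.650, 0.643 and 0.636 (adjusted permutation p = 0.0224, 0.0425, 0.0481 and 0.0425). Their rho values were 0.680, 0.492, 0.690 and 0.494 (permutation p = 0.00263, 0.0408, 0.00221 and 0.0382). Without KO tumour 6 and WT tumour 8 those r were 0.660 for Ccl3 and 0.677 for Relb, and 0.327 for Bcl3 and 0.236 for Rel. The summed dendritic cell markers ran from 218 to 586 in KO and from 246 to 703 in WT tumours.

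The relations left were Nfkbia with the NK and cytotoxic list (r = 0.663, adjusted permutation p = 0.0425; rho = 0.463, permutation p = 0.0544; all 9 genes measured) and Nfkb2 with the endothelial and stromal list (r = 0.639, adjusted permutation p = 0.0425; rho = 0.562, permutation p = 0.0167; all 9 genes measured). Leaving out the 2 tumours farthest from the median of each list gave 0.321 for Nfkbia and 0.448 for Nfkb2. Summed NK and cytotoxic intensities ran from 314 to 2558 in KO and from 259 to 3279 in WT tumours, and endothelial and stromal ones from 342 to 530.3 in KO and from 361 to 501 in WT tumours. After the T cell, macrophage and erythroid means were taken out of each member, 23 of 36 pairs were positive with a median r of 0.120, and Relb with Nfkbia was 1 of 2 pairs past the adjusted threshold. The other was Rel with Ccl4, with an r of -0.672 (adjusted permutation p = 0.0335). The permutations treated the residuals as free values and did not allow for the marker means taken out. These p-values are therefore too small, and whether either pair would pass with that allowance was not worked out. The part of each cell type in the members' levels was not tested.

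**Figure D5:**
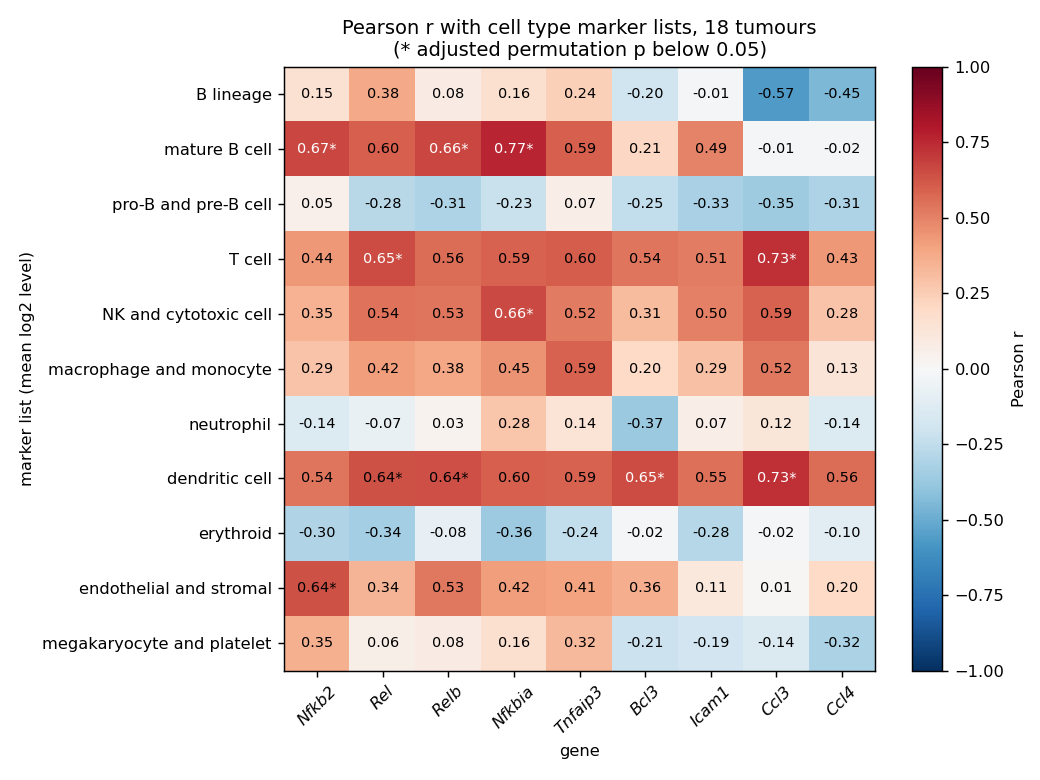
Pearson r over 18 tumours between each member (columns) and the mean log2 level of each marker list (rows), with asterisks where the permutation p adjusted over the 99 relations was below 0.05. Positive values fill the rows of T cells, NK and cytotoxic cells, macrophages, dendritic cells, and endothelial and stromal cells. Ccl3 and Ccl4 have negative values with the B lineage list (-0.57 and -0.45), which become -0.02 and -0.20 without WT8 and KO3.

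The genes whose pattern was most like each member's were sought by Pearson r over the 18 tumours among 9561 annotated genes brighter than the median gene. Rel was closest to Ptprc, which encodes the leukocyte antigen CD45 (0.893), to Cyld, a deubiquitinase that restrains NF-kB signalling (0.883), and to Olfr99 (0.878). Without KO tumour 6 and WT tumour 8 these were 0.774, 0.784 and 0.692. Ccl3 was closest to Siglech, a plasmacytoid dendritic cell receptor (0.919), to Cd7 (0.913) and to Nfkbiz (0.905), which encodes another nuclear IκB protein. Those values for Ccl3 were 0.692, 0.596 and 0.531 without KO tumour 6 and WT tumour 8. Relb was closest to Slc2a4rg-ps (0.910), Trp53inp2 (0.870) and Prf1, the perforin gene of cytotoxic cells (0.843), and these were 0.895, 0.851 and 0.822 without those tumours.

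Bcl3 was closest to Tigit, an inhibitory receptor of T and NK cells (0.861), and then to Tkfc (0.799) and Il10ra (0.783), a chain of the interleukin 10 receptor. Ccl4 was closest to the stress-response factor Atf3 (0.862), Derl3 (0.781) and Grifin (0.768). The closest genes were Phyhd1 (0.837), Gucy1a1 (0.819) and Ffar2 (0.806) for Nfkbia, and Dock10 (0.834), Plcb2 (0.817) and Crebl2 (0.792) for Tnfaip3. For Icam1 they were Tlr9 (0.777), the receptor for unmethylated DNA, Il21r (0.770) and Acvrl1 (0.753), and for Nfkb2 they were Rogdi (0.790), Nradd (0.787) and Mfge8 (0.787). Without KO tumour 6 and WT tumour 8, in the same order, the values were 0.777, 0.599 and 0.537 for Bcl3 and 0.773, 0.673 and 0.634 for Ccl4. They were 0.805, 0.746 and 0.761 for Nfkbia, and 0.756, 0.652 and 0.663 for Tnfaip3. For Icam1 they were 0.770, 0.740 and 0.756, and for Nfkb2 0.704, 0.667 and 0.590. All these values describe the closest of many genes and carry no test.

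The rest of the pathway was read from 54 further genes, of which 49 were measured, and 0 of them passed the adjusted threshold of limma between genotypes. Before adjustment, 3 of the 49 reached p below 0.05 with higher levels in KO tumours and 2 with lower ones, where 2.83% and 3.87% of all genes did, and the median difference was -0.06. Among receptors and adaptors (12 of 13 measured, median difference 0.03), Traf6, a ubiquitin ligase of Toll-like receptor signalling, averaged 5.77 ± 0.27 in KO and 5.46 ± 0.18 in WT tumours (SD, n = 9 each), and the difference was 0.31 (SE 0.11) at a limma adjusted p of 0.699. The BAFF receptor gene Tnfrsf13c had a difference of 0.37 (SE 0.14), the lymphotoxin receptor gene Ltbr -0.21 (SE 0.09) and Tlr9 -0.15 (SE 0.12). These 4 had the smallest p of their group.

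Kinases and signalling complexes had 0 of 8 measured genes at an unadjusted p below 0.05, with a median difference of 0.03. Tab1 differed by -0.11 (SE 0.10), the IKK scaffold gene Ikbkg by 0.07 (SE 0.08), the IKK kinase gene Ikbkb by 0.07 (SE 0.12) and Tab2 by 0.09 (SE 0.18), with limma adjusted p from 0.858 to 0.940. The difference of Tab2 was -0.001 without WT tumour 3. Without KO tumour 6 the median of the kinases was -0.03 and that of the receptors and adaptors -0.06. The other subunit and inhibitors also had 0 of 5 at that level. Rela, which encodes p65, the main activating subunit, ranged from 5.57 to 6.92 in KO and from 5.61 to 6.29 in WT tumours, and its difference was 0.22 (SE 0.15) at a limma adjusted p of 0.815. The inhibitor genes Nfkbib, Nfkbie and Nfkbiz had differences of -0.11, -0.10 and -0.15, of which that of Nfkbiz turned to 0.04 without WT tumour 8 and those of Nfkbib and Nfkbie were -0.03 and -0.009 without WT tumour 3.

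Brakes on the pathway had 1 of 7 genes at an unadjusted p below 0.05, Otulin, a deubiquitinase of linear chains, with 7.93 ± 0.39 in KO and 7.53 ± 0.47 in WT tumours (SD, n = 9 each), which differed by 0.40 (SE 0.19) at a limma adjusted p of 0.735. The difference of Otulin was 0.52 without WT tumour 8. Tnip2 had a difference of 0.20 (SE 0.10), Tnip1, an A20 partner, -0.14 (SE 0.09), and the ubiquitin ligase gene Itch 0.25 (SE 0.17). Of the other targets, 15 of 17 measured genes had negative differences, where 59.2% of all genes did, with a median of -0.09. Without WT tumour 4 they were 11 of 17. Markers of several other cell types went the same way. Differences were negative for 8 of 8 T cell, 7 of 7 dendritic and 9 of 9 neutrophil genes. Also negative were 9 of 10 macrophage, 8 of 9 NK and cytotoxic and 6 of 6 erythroid genes (median -0.55). Of endothelial and stromal genes 6 of 9 were negative (median -0.02), and of megakaryocyte and platelet genes 2 of 5 (median 0.06). Without WT tumour 4, 6 of 8 T cell, 6 of 7 dendritic and 8 of 9 neutrophil genes were negative. In that setting so were 7 of 10 macrophage, 6 of 9 NK and cytotoxic and 6 of 6 erythroid genes. With all tumours, 5 of 5 mature B cell genes (median 0.17) and 7 of 7 pro-B and pre-B genes (median 0.43) were positive. Without KO tumour 6 these were 2 of 5 and 6 of 7. Of B lineage genes 6 of 8 were positive with all tumours. Before adjustment 4 B lineage genes reached p below 0.05 in limma and 0 passed after it. WT tumour 8 had the lowest level of all 18 for Cd79a, Ebf1 and Vpreb3, which were among these 4. Without it 5 of 8 B lineage genes were positive, and the median difference of the list was 0.33 beside 0.38 with it. The part of these cell types in the target genes was not tested. Ier3, an immediate-early survival gene, averaged 5.57 ± 0.31 in KO and 5.96 ± 0.24 in WT tumours (SD, n = 9 each), which differed by -0.39 (SE 0.13) at a limma adjusted p of 0.683. The chemokine genes Ccl5 and Cxcl10 had differences of -0.86 (SE 0.48) and -0.54 (SE 0.32), and the lymphotoxin gene Ltb -0.33 (SE 0.23). Without WT tumour 8 the differences of Ccl5, Cxcl10 and Ltb were -0.66, -0.49 and -0.25. Without WT tumour 4 they were -0.70, -0.36 and -0.23, and without KO tumour 6 they were -1.15, -0.75 and -0.47. KO tumour 6 had the highest mean of the receptor, kinase and brake lists among all 18 tumours, at 6.70, 6.64 and 7.34, and the second highest mean of the other targets, at 6.15.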

How the data were processed

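Total RNA of 18 whole splenic tumours was labelled with biotin and hybridised to Affymetrix arrays, 1 per tumour, per the labels' protocols. The authors deposited probe set intensities on a linear scale. RMA is named in the submitters' processing notes. Its version and genome build are not given in the sources used here. Intensities ran from 1.63 to 14996, with array medians from 35.3 to 41.7, and were transformed to log2 with no pseudocount. Of 35556 probe sets, 21789 had 1 gene symbol in the platform table, 1621 several and 12146 none. RefSeq identifiers (GRCm38.p6) matched 21698 of them and changed 0 symbols. Each gene took its probe set with the highest mean. Nfkb1 is not analysed here, so 36 pairs of members were formed. At most 0.045% of probe sets were equal between 2 arrays, so no array was a copy of another, which does not by itself show independence. Each array has its own tumour number in the labels and was taken as 1 replicate. The number of arrays limits the precision.

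Genotypes were compared with limma 3.58.1 (R 4.3.3, lmFit and eBayes), with Benjamini-Hochberg adjustment over 19938 genes and a threshold of 0.05, and with two-sided exact permutation tests. On simulated data of 9 against 9 tumours and 19938 genes with 200 changed genes, 69.7% of 1.5-fold and 88.1% of 2-fold changes were recovered. The simulated noise was normal and independent between genes, without the outlying tumours of these data. Recovery was averaged over genes of all spreads and was not worked out for the members. Correlations used Python 3.11.15 with numpy 2.4.6 and 100000 permutations. All members, pathway genes named (up to 4 per list by smallest p), like genes (3 per member) and pairs (past the threshold, and the lowest 3) followed a written rule. Ccl3 with Ccl4, Rel with Nfkbia and the markers of KO tumour 6 and WT tumour 8 were chosen after their values were seen. The members and lists were chosen with earlier results of these data known. Alternatives covered probe set choice, scaling, a filter on dim genes, the variance model, marker covariates, the replicate block and left-out tumours. Scan dates were not used here.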

Additional observations from a re-analysis of the deposited data

Results flagged for a closer look

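Among the 18 sets of 9 levels (9 members in 2 genotypes), 3 held a tumour whose gap to its nearest neighbour was large relative to the range, by Dixon's criterion of 0.493 for 9 values. For normal and independent values this criterion flags about 1 in 20 groups. The groups here share tumours, and the share flagged over all genes was not computed, so whether 3 of 18 is unusual is not known. Rel was at 9.06 in KO tumour 6, with a gap of 0.649 of the KO range, and Nfkbia was at 7.32 in the same tumour, with a gap of 0.703. Ccl3 was at 7.25 in WT tumour 8, with a gap of 0.655 of the WT range. KO tumour 6 had the highest mean of the mature B cell list (7.82), the T cell list (7.25) and the dendritic cell list (6.20), and the lowest of the erythroid list (6.91). WT tumour 8 had the lowest mean of the B lineage list (6.38) and of the mature B cell list (5.62), and the second highest of the T cell list (7.20). The part of these cells in the flagged levels was not tested.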

How the results depend on the processing

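Members and pathway genes called stayed at 0 in all 28 alternatives. The 1 gene called over all genes became 0 with the replicate block and without both WT tumour 3 and KO tumour 4. With 1 tumour left out it was 0 to 1, and it was 0 without KO tumour 3, 5, 7 or 8 or WT tumour 3, 4, 5, 6, 7 or 9. The labels give no pairing of tumours by replicate number. Correlations of same-numbered deviations ran from -0.234 to 0.485 and were not compared with those of differently numbered tumours. The block changed no member's call. Uncalled differences that changed sign were those of Nfkb2 with array weights (-0.025), of Bcl3 with marker covariates (0.082), of Nfkb2 with 1 tumour left out (from -0.0058 without KO tumour 6 up to 0.0939 when KO tumour 5 was left out) and of Icam1 with tumours left out (-0.0723 without WT tumour 3 and KO tumour 4 to 0.0081 without KO tumour 2). The filter on dim genes left out 5 members. The count of pairs past the threshold, 4, was 0 (without KO tumour 6) to 5 (without KO tumour 5 or WT tumour 3, 8 or 9) with 1 tumour left out, 2 after quantile normalization, 2 with marker residuals and 0 without KO tumour 6 and WT tumour 8. The permutation p-values with marker residuals did not allow for the means taken out and are too small. The median r of 0.367 was 0.276 (without KO tumour 6) to 0.461 (without WT tumour 3) with 1 tumour left out, 0.315 after quantile normalization, 0.332 after median centring, 0.421 with genotypes centred, 0.120 with marker residuals, 0.502 without WT tumour 3 and KO tumour 4, and 0.290 without KO tumour 6 and WT tumour 8. Rel with Relb turned to -0.435 with marker residuals, and with tumours left out ran from -0.273 without KO tumour 6, or -0.301 without WT tumour 8 as well, to 0.498 without WT tumour 3 and KO tumour 4. Rel with Ccl4 was 0.0747 with genotypes centred, was -0.672 with marker residuals, and with tumours left out ran from -0.393 without KO tumour 6 and WT tumour 8 to 0.254 without WT tumour 3 and KO tumour 4. Tnfaip3 with Ccl4 was 0.179 with genotypes centred, was -0.283 with marker residuals and -0.206 after quantile normalization, and with tumours left out ran from -0.168 without KO tumour 6 and WT tumour 8 to 0.255 without WT tumour 3. The cause was not tested. Relb with Nfkbia stayed between 0.690 and 0.832 in the 24 alternatives that could change it and missed the adjusted threshold in 2, with an adjusted permutation p up to 0.0682. None of these left out KO tumour 6 and WT tumours 3 and 4 together, the 3 highest for both genes. The settings without 2 tumours, and the values within 1 genotype or for pathway genes without 1 tumour, were added once the levels were known. The mean level of 5 members lay below that of the median gene, and low signal over background limits what these probe sets can show.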
